A study of Saccharomyces cerevisiae with 4 samples.

Results

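The glycogen genes examined here are the 8 genes of Saccharomyces cerevisiae that build the glycogen polymer or take it apart: GSY1 (YFR015C), GSY2 (YLR258W), GLC3 (YEL011W), GLG1 (YKR058W), GLG2 (YJL137C), GPH1 (YPR160W), GDB1 (YPR184W) and SGA1 (YIL099W). They were chosen by name, not by their values, from the 7132 features of the deposited counts table. All 8 are listed there, had reads in every library and were among the 6140 genes that could be tested. RNA came from haploid spores that were harvested 7 days after copper was added to sporulation medium at 30 °C. The parent was a single SK1-background diploid in which the copper-responsive CUP1 promoter drives IME1, the switch into meiosis, and in which mCherry and a hygromycin resistance gene sit at the MATa allele. All 4 libraries therefore share the copper-driven IME1 and the copper treatment, and none is a vegetative culture or an unsorted control. Spores freed from the ascus by enzyme digestion were sorted by mCherry fluorescence into red spores (2 libraries, called a spores in the paper) and non-red spores (2 libraries, called α spores). The deposited strain descriptions do not match that naming. In them 1 non-red sample (replicate 1) is MATa and the other 3 samples are MATalpha, so the groups are called by color here. Reads of the inserted mCherry and hygromycin resistance gene were higher in red than in non-red spores of both replicates. That direction goes with the naming in the paper and not with the strain descriptions. Sporulation and sorting were done on separate occasions, giving replicates 1 and 2, referred to as run 1 and run 2. Each run gave 1 red and 1 non-red library from the same sporulation.

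Glycogen is a branched polymer of glucose that yeast lays down as nutrients run out and again during the first part of sporulation, and that is consumed as spores mature. The glycogenin-like proteins Glg1 and Glg2 prime a new chain, the glycogen synthases Gsy1 and Gsy2 lengthen it from UDP-glucose, and the branching enzyme Glc3 adds side chains. Glycogen phosphorylase Gph1 releases glucose-1-phosphate from the chain ends, and the debranching enzyme Gdb1 removes the stubs at which phosphorylase stops. Sga1 is a glucoamylase of sporulating cells that frees glucose directly. Several of these genes are known targets of the stress factors Msn2 and Msn4, which bind the stress response element (STRE).

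The genes lie on 7 chromosomes of the R64 reference, each has 1 coding exon with no intron, and none overlaps another gene in its annotation. GSY1 is on chromosome VI from 174265 to 176391 (minus strand) and GSY2 on chromosome XII from 660716 to 662833. GLC3 is on chromosome V from 133120 to 135234. GLG1 is on chromosome XI from 552770 to 554620 and GLG2 on chromosome X from 154985 to 156127 (minus strand). GPH1 and GDB1 are both on chromosome XVI, from 861306 to 864014 and from 902044 to 906654. SGA1 is on chromosome IX from 178004 to 179653. In the reference, the coding sequences of GSY1 and GSY2 are 73.3% identical over 2114 aligned bases and those of GLG1 and GLG2 61.3% over 1117, and neither pair shares a 50-base word. No 50-base word of any of the 8 genes occurs elsewhere in the reference.

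The sequences before the start codons are shown because GLC3, GPH1 and GDB1 differed most between runs, as described below, and because SGA1, known as a sporulation gene, carries the most STRE matches of the 8. In the 500 bases before each start codon the STRE was searched as AGGGG on both strands. The middle sporulation element (MSE), the site of the meiotic factor Ndt80, was searched on both strands in its 4 forms. These were the word CACAAAA, its variant ending in T, which is CACAAAT, and the forms with G as the second base, which are CGCAAAA when ending in A and, when ending in T, CGCAAAT. The stretches that hold the matches read 5′ to 3′ on the coding strand as follows, with STRE matches (AGGGG or CCCCT) and the MSE match (CACAAAT) in capitals.
GLC3, chrV:132736-132921, plus strand: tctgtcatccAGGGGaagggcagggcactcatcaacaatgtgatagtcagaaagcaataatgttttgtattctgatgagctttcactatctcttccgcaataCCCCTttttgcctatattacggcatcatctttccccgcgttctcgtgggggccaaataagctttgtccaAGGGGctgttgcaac
GPH1, chrXVI:860939-860994, plus strand: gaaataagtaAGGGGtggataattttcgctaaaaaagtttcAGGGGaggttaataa
GDB1, chrXVI:901827-901881, plus strand: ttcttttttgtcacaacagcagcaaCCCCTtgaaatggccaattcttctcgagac
SGA1, chrIX:177565-177828, plus strand: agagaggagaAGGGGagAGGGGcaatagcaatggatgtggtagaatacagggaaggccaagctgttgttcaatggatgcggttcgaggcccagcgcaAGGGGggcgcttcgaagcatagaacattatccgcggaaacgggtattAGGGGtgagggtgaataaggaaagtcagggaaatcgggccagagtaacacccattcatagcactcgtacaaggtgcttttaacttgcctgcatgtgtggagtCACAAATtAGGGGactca

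SGA1 held 5 STRE matches within 500 bases, a number reached by 0.2% of 6000 promoters of that length, and 1 MSE match, which 30.6% of promoters hold. That MSE match ends 187 bases before the start codon, 1 base away from an STRE match that begins 185 bases before it. GLC3 had 3 STRE matches, which 1.83% of promoters reach. GSY1, GSY2, GLG2 and GPH1 had 2 each, reached by 8.13%, and GDB1 had 1, where 34.1% of promoters have at least 1. GLG1 had none. The window of GLG2 runs into the neighboring gene, which begins 41 bases upstream, and all STRE and TATA matches of GLG2 lie farther upstream than that. The window of GDB1 meets its neighbor after 485 bases. The URS1 core of early meiotic genes, searched as GGCGGC on both strands, was in none of the 8 windows and in 9.57% of all promoters. A TATA element, searched as TATAAA on both strands, was in 6 of the 8 and in 60.5% of all promoters. These matches describe the reference sequence of S288C, not that of SK1, and no binding was measured.

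**Figure D1:**
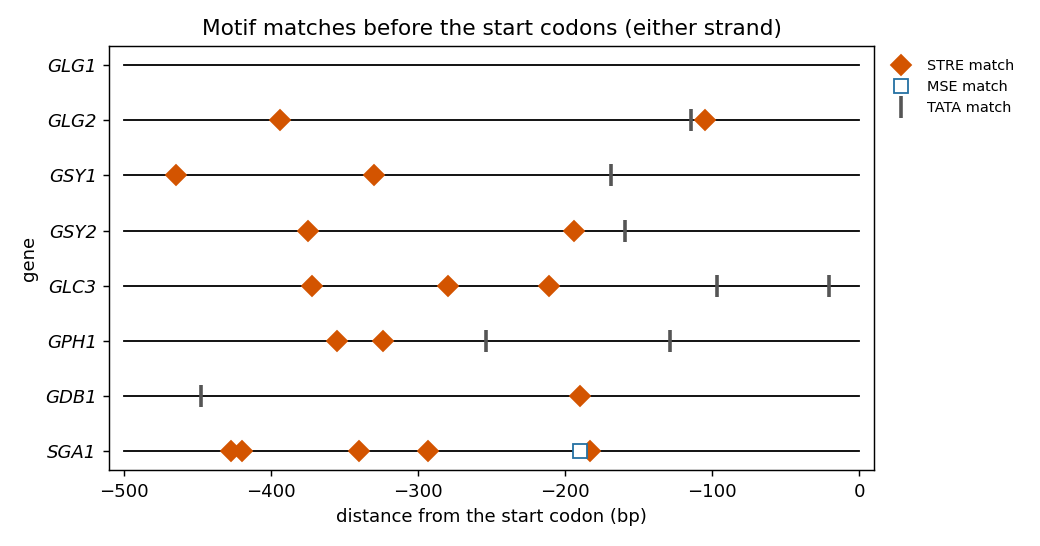
Matches to the STRE, MSE and TATA words in the 500 bp before the start codon of each gene, on either strand, placed by distance from the start codon in bp. SGA1 carries 5 STRE matches and the only MSE match, while GLG1 carries no match to any of them.

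Column totals were between 25493760 and 45697828 reads per library, with the larger totals in run 1. The deposited values are estimated read counts, and levels below are CPM (library-size-scaled counts) after TMM normalization, called normalized CPM, divided by the length of the coding sequence in kb wherever genes are compared with each other. In each library the median over 5786 coding genes was between 68.2 and 70.5 CPM per kb. The sorted spores carried the spore marker SPS100, a gene of late spore wall formation, at 2151 to 3238 CPM, which makes up most of the sum over 8 spore formation markers (2255 and 2423 CPM in run 1, 2907 and 3354 in run 2). Of the other 7 markers SMK1 reached 70.6 CPM, the highest of them, and OSW1 was at 0 reads in 3 libraries. The sum over 8 markers of budding cells was 518.5 and 575.1 CPM in run 1 and 616.6 and 502.4 in run 2, with none at 0, so transcripts of both kinds were present. That sum is carried largely by CTS1 (191.4 to 290.3 CPM) and does not show its members ASH1 and DSE2, which were lower in run 2 in both sorts. ASH1 had 78.3 and 75.6 CPM in run 1 and 40.3 and 36.6 in run 2, and DSE2 had 63.8 and 72.4 in run 1 and 24.7 and 44.2 in run 2. No marker passed an FDR of 0.05 between runs in edgeR's quasi-likelihood test, but DESeq2 called ASH1 (log2 fold change -1.005, FDR = 0.000188), DSE2 (-1.04, FDR = 0.00364) and SPS100 (0.43, FDR = 0.000217). The part of these markers in the results below was not tested. In bulk RNA, fewer cells of a type and less of a transcript per cell cannot be told apart.

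All 8 glycogen transcripts were present in all 4 libraries of sorted spores, at levels from 7.32 to 263.4 CPM per kb. In run 1 the chain-priming gene GLG1 was the highest of the 8 in both sorted populations, and in run 2 the debranching gene GDB1 was, followed by the branching gene GLC3. GPH1, the phosphorylase gene, was the lowest of the 8 in every library. Averaged over the 4 libraries, the levels ran from GDB1 (153.1 ± 125.5 CPM per kb, SD, n = 4) and GLC3 (145.1 ± 98.8) through GLG1 (86.2 ± 24.9), SGA1 (79.8 ± 23.5), GLG2 (65.9 ± 8.18) and GSY2 (56.7 ± 15.6) to GSY1 (41.4 ± 16.3) and GPH1 (34.5 ± 22.9). Each neighboring pair in this order differed by less than the larger of its SDs, which include the shift between runs. The order of GDB1, GLC3, GLG1 and SGA1 depends on which libraries are averaged. In every library GSY1 was at position 7 of the 8 and GPH1 at position 8. In the averages GLG2 and GSY2 kept positions 5 and 6 whichever library was left out. Without division by length GPH1 was at position 6 and GLG2 at position 8. Dividing by coding length assumes that coverage is even along it.

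**Figure D2:**
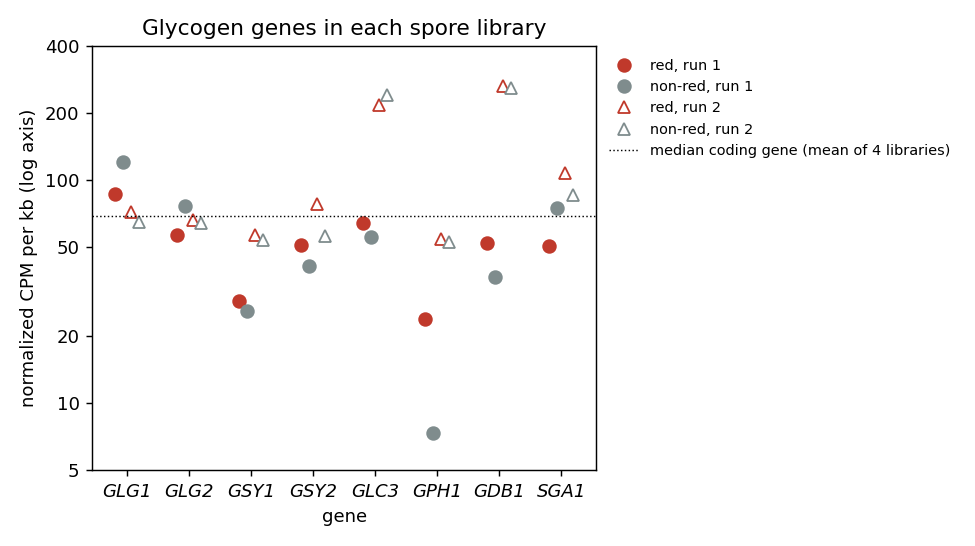
Normalized CPM per kb of coding sequence (log axis) of each glycogen gene in the 4 libraries, red symbols for red spores and gray for non-red, filled circles for run 1 and open triangles for run 2, with a dotted line at the median coding gene. GDB1 and GLC3 lie near or below the line in run 1 and between 218.3 and 263.4 in run 2, and GPH1 in non-red spores of run 1 is lowest at 7.32.

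The clearest differences were between the sporulation runs, and among the 8 genes they were largest in GDB1, GPH1 and GLC3. GDB1, GLC3 and GPH1 were higher in run 2 in both sorted populations and passed an FDR of 0.05 in edgeR's quasi-likelihood test with sort color as a block. Before adjustment, 4 of the 8 and 1910 of all genes had p under 0.05. Past the FDR were 3 of the 8 genes, where 18.8% of the 6140 genes tested passed in either direction. All 3 were higher in run 2, as were 8.96% of all genes, while none of the 8 passed as lower, against 9.87% of all genes. The median log2 fold change of the 8 genes was 0.83, against -0.02 over all genes. Since the libraries of a run came from 1 sporulation, these p-values measure the spread between sorted fractions and do not show how far separate sporulations would differ.

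GDB1 had 8695 reads in red and 7467 in non-red spores of run 1, and 34147 and 30862 in run 2. As normalized levels these are 52.4 and 36.7 CPM per kb in run 1 and 263.4 and 259.9 in run 2. Both run 2 libraries lie far above both run 1 libraries, and the debranching gene was above 35.9% and 23.7% of coding genes in run 1 and above 89.0% and 88.7% in run 2. The log2 fold change was 2.58 ± 0.25 (SE of the ratios in red and non-red, n = 2), or 5.96-fold, with an FDR of 0.000226 in edgeR's quasi-likelihood test. It ranked 34 by p among the 6140 genes.

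GLC3, the only branching enzyme gene, had 4881 reads in red and 5199 in non-red spores of run 1, and 12982 and 13185 in run 2. Its levels were 64.1 and 55.7 CPM per kb in run 1 and 218.3 and 242.1 in run 2. The branching gene thus separated by run as GDB1 did, with red lower than non-red in run 2 and higher in run 1. The log2 fold change was 1.94 ± 0.18 (SE, n = 2), or 3.85-fold, with an FDR of 0.000811 in edgeR's quasi-likelihood test.

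GPH1 had 2330 reads in red and 874 in non-red spores of run 1, and 4133 and 3678 in run 2. Its levels were 23.9 and 7.32 CPM per kb in run 1 and 54.3 and 52.7 in run 2. The phosphorylase transcript was thus at close levels in the sorted populations of run 2 and unequal in those of run 1, where the non-red library was lowest. Its log2 ratio of run 2 over run 1 was 1.18 in red and 2.84 in non-red spores, and the fitted log2 fold change was 2.01 ± 0.83 (SE, n = 2) with an FDR of 0.0144 in edgeR's quasi-likelihood test. The call rests on the non-red library of run 1: without it, in a fit with no term for sort color, the log2 fold change was 1.15 and edgeR's FDR 0.0971. That library has the largest column total of the 4. GDB1, GLC3, GSY1 and GSY2 also had their lowest level there, by smaller margins than GPH1.

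The glycogen synthase genes were both at a higher level in run 2, without passing the threshold. GSY2 is known as the main synthase of stationary cells. GSY1 had levels of 28.7 and 25.9 CPM per kb in red and non-red spores of run 1, and 56.7 and 54.1 in run 2. The runs did not overlap, with run 2 above run 1, as for 30.9% of all genes tested. The ratios in red and non-red were almost the same (0.98 and 1.06 on the log2 scale). The log2 fold change of 1.02 ± 0.04 (SE, n = 2) narrowly missed the threshold in edgeR's quasi-likelihood test (FDR = 0.0518) and passed it in the likelihood ratio test of edgeR (FDR = 0.0173). Its call also depends on the filter, the scaling and the block: the quasi-likelihood test gave an FDR of 0.0419 with at least 10 counts required in every library, 0.0141 with column totals only and 0.0362 with no term for sort color. GSY2 had 51.2 and 41.1 CPM per kb in run 1 and 78.1 and 56.4 in run 2, a log2 fold change of 0.53 ± 0.08 (SE, n = 2) with an FDR of 0.234 in edgeR's quasi-likelihood test. Its run 1 values were also below both of run 2. In fits with no term for sort color, the change was 0.29 without red replicate 2. Whether the synthases differ from each other in this was not tested.

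The priming genes did not share this direction. GLG1 had 86.5 and 121.1 CPM per kb in red and non-red spores of run 1, and 72.1 and 65.0 in run 2. GLG1 is the only one of the 8 whose run 2 libraries both lie below those of run 1, with a log2 fold change of -0.58 ± 0.32 (SE, n = 2) that did not pass (FDR = 0.197, edgeR's quasi-likelihood test). Without non-red replicate 1, in a fit with no term for sort color, it was -0.34. GLG2 had 56.9 and 76.7 CPM per kb in run 1 and 66.1 and 64 in run 2. The runs overlap for GLG2, and its log2 fold change was -0.02 ± 0.24 (SE, n = 2, FDR = 0.985, edgeR's quasi-likelihood test), turning to 0.03 when only column totals were used for scaling.

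SGA1, the sporulation glucoamylase gene, had 3016 reads in red and 5457 in non-red spores of run 1, and 4972 and 3662 in run 2. Its levels were 50.8 and 75.0 CPM per kb in run 1 and 107.2 and 86.2 in run 2. Both run 2 values are the higher ones, but the red and non-red spores changed order between runs. The log2 fold change was 0.64 ± 0.44 (SE, n = 2) with an FDR of 0.2 in edgeR's quasi-likelihood test, beside 2.01 and 2.58 for GPH1 and GDB1. Whether it differs from these was not tested. Without red replicate 1, in a fit with no term for sort color, the change was 0.33. Across runs and sorts, SGA1 was above 34.4% to 67.5% of coding genes.

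Counted by order alone, 6 of the 8 genes had both run 2 libraries above both run 1 libraries in normalized CPM, where 30.9% of all genes tested did, and 1 (GLG1) had both below, where 31.1% did. The likelihood ratio test of edgeR added GSY1, giving 4 of 8 where it called 26.1% of all genes. DESeq2 called 7 of 8, all except GLG2, where it called 44.1% of all genes.

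**Figure D3:**
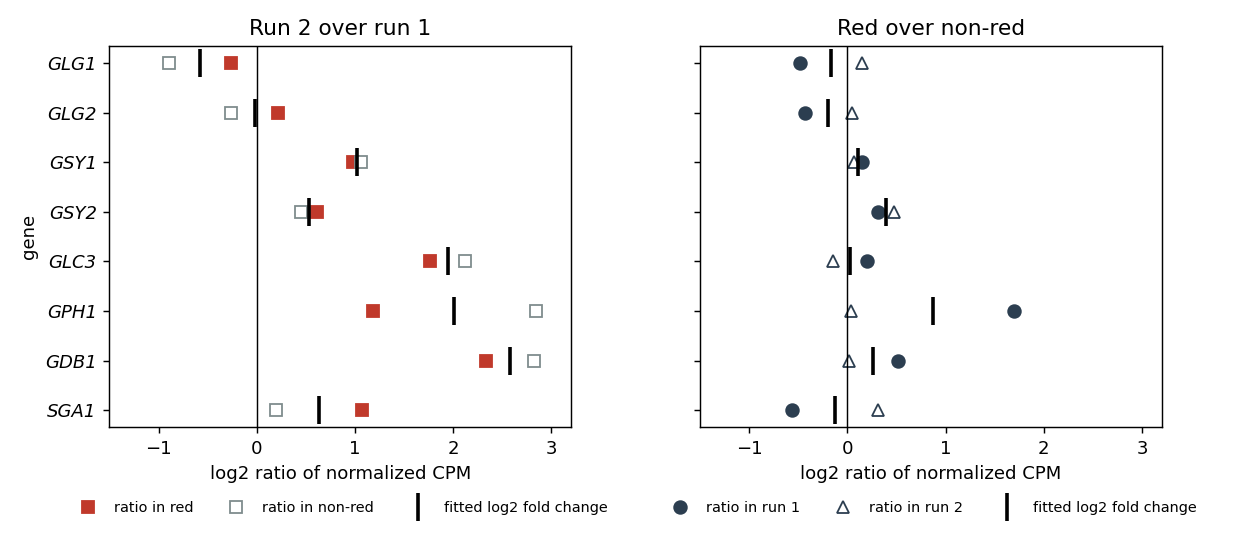
Log2 ratios of normalized CPM for each glycogen gene, run 2 over run 1 in red and in non-red spores (left) and red over non-red in run 1 and in run 2 (right), with a vertical bar at the fitted log2 fold change. GDB1, GLC3 and GPH1 lie furthest right on the left, from 1.18 to 2.84, while on the right all ratios lie within 1 log2 unit of 0 except GPH1 in run 1, at 1.70.

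The make-up of the set also differed between runs. Summed over the 8 genes, the level was 414.5 and 439.6 CPM per kb in red and non-red spores of run 1 and 916.3 and 880.4 in run 2. The share of GDB1 in that sum was 12.6% and 8.36% in run 1 and 28.8% and 29.5% in run 2. The share of GLG1 was 20.9% and 27.5% in run 1 and 7.87% and 7.39% in run 2. SGA1 held 12.3% and 17.1% in run 1 and 11.7% and 9.79% in run 2. GLG1 thus had the largest share in run 1 and GDB1 in run 2, and the share of SGA1 differed least between runs of these 3.

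**Figure D4:**
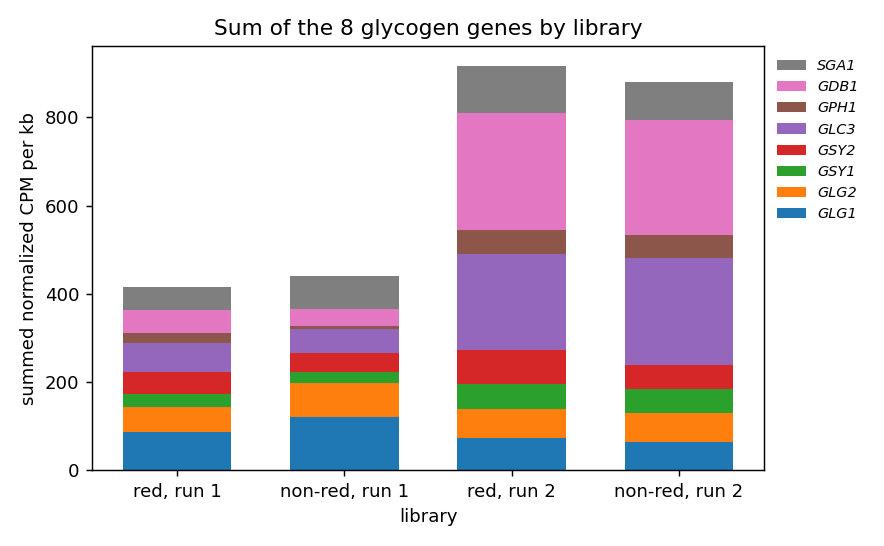
Stacked normalized CPM per kb of coding sequence of the 8 glycogen genes in each library. The sums of run 2, at 916.3 and 880.4, exceed those of run 1, at 414.5 and 439.6, and GDB1 and GLC3 make up most of the added height.

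Within each paralog pair the levels were closer to each other in run 2. GSY2 over GSY1, per kb, was 1.78 in red and 1.59 in non-red spores of run 1, and 1.38 and 1.04 in run 2. GLG1 over GLG2 was 1.52 and 1.58 in run 1, and 1.09 and 1.02 in run 2. Both ratios were lower in both libraries of run 2, by 0.49 and 0.56 on the log2 scale. In an exact two-sided permutation test of 2 libraries against 2, p was 0.333 for either pair, the smallest that this design allows, so the differences could not be called. The ratio of the priming genes depends on scaling by length, since the coding sequence of GLG1 has 1851 bases and that of GLG2 1143. Averaged over 4 libraries it was 1.30 ± 0.289 (SD, n = 4) per kb and 2.11 from read counts alone.

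The comparison that the study was designed for, red against non-red spores, asks whether a transcript follows mating type. Red and non-red were compared by edgeR's likelihood ratio test with the replicate number as a block. It called none of the 8 glycogen genes at an FDR of 0.05, where 0.0163% of the 6140 genes passed. The only gene called in the fit here was the inserted hygromycin resistance gene. The paper's own edgeR model also called mCherry, Mata1 and YAR064W, though the paper discounted the last after closer inspection. In the fit here the inserted mCherry, by which the spores were sorted, was higher in red in both runs but did not pass. A missing call in this test therefore does not show equal levels. Before adjustment, p was under 0.05 for 0 of the 8 in this test, for 279 of all genes, and for 0 of the 8 in edgeR's quasi-likelihood test. DESeq2 called 0 of the 8 at the same FDR, where it called 3.62% of all genes. The fitted log2 fold changes of red over non-red ran from -0.19 for GLG2 to 0.87 for GPH1, with a median of 0.07 against 0.02 over all genes.

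The sorted populations of run 2 differed by less than 1 log2 unit for all 8 glycogen genes, as for 84.0% of all genes tested. The absolute log2 ratio of red over non-red there had a median of 0.11 over the 8 genes and a maximum of 0.47 (GSY2), against a median of 0.38 over all genes tested. In run 1 the median was 0.46 and the maximum 1.70 (GPH1), against 0.32 over all genes. These medians were not matched for read number, and the genes tested include some with far fewer reads than the 8. GPH1 was the only one of the 8 to differ by more than 1 log2 unit within a run, in run 1, where 88.1% of the genes tested differed by less than that. Its ratio in run 2 was 0.04. For GPH1, edgeR's likelihood ratio test gave an unadjusted p of 0.0539, with an adjusted p of 1. GSY2 came next in size of the fitted change, with red over non-red at 0.32 and 0.47 on the log2 scale, and a fitted log2 fold change of 0.39 ± 0.08 (SE, n = 2) whose unadjusted p was 0.204 in the same edgeR test. In fits with no replicate block, that change was 0.07 without red replicate 2 and 0.19 without non-red replicate 1. It was 0.65 without non-red replicate 2 and 0.66 without red replicate 1. In these fits color is mixed with run, so the values also hold the change of GSY2 between runs, 0.53 on the log2 scale.

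The 19 other genes of glycogen metabolism on the list supply the substrate or regulate the enzymes, and all were tested. Between runs 5 of the 19 were higher in run 2 in edgeR's quasi-likelihood test, where 8.96% of all genes were, and 1 was lower, where 9.87% were. Their median log2 fold change was 0.78, against -0.02 over all genes. The likelihood ratio test of edgeR called 8 of the 19 (26.1% of all genes) and DESeq2 13 (44.1% of all genes). Between red and non-red spores edgeR's likelihood ratio test called 0 of the 19. DESeq2, which called 3.62% of all genes there, called 1, UGP1, with a log2 fold change of 0.42 and an FDR of 0.046 in favor of red spores.

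Of the genes that supply UDP-glucose, PGM2 and UGP1 were higher in run 2 and PGM1 was lower. PGM2, the main phosphoglucomutase gene, had 139.4 and 86.2 CPM in red and non-red spores of run 1 and 336.1 and 290.1 in run 2 (log2 fold change 1.51, FDR = 0.0043, edgeR's quasi-likelihood test). PGM1, the minor isoform, went the other way, from 125.3 and 99.5 CPM in run 1 to 66.4 and 34.0 in run 2 (log2 fold change -1.23, FDR = 0.038, same test). UGP1, which makes UDP-glucose from glucose-1-phosphate, had 294.0 and 202.5 CPM in run 1 and 792.7 and 623.6 in run 2 (log2 fold change 1.53, FDR = 0.00142, same test). The libraries of the runs did not overlap for any of these. Of all genes tested, 30.9% had run 2 above run 1 without overlap and 31.1% had it below. Per kb the isoforms PGM1 and PGM2 were near each other in run 1 and far apart in run 2. In levels per kb, PGM2 and PGM1 had 81.5 and 73.1 CPM per kb in red and 50.4 and 58.1 in non-red spores of run 1, and 196.6 and 38.8 in red and 169.6 and 19.9 in non-red spores of run 2.

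Among the regulators, GLC7, the catalytic subunit of the phosphatase that activates glycogen synthase, had 117.8 CPM in both populations of run 1 and 356.0 and 377.5 in run 2 (log2 fold change 1.64, FDR = 0.00183, edgeR's quasi-likelihood test). GLC8, a regulator of that phosphatase, had 160.0 and 161.1 CPM in run 1 and 395.1 and 385.8 in run 2 (log2 fold change 1.28, FDR = 0.00481, same test). PSK1, a PAS-domain kinase that acts on Ugp1, had 209.2 and 148.7 CPM in run 1 and 376.5 and 504.5 in run 2 (log2 fold change 1.30, FDR = 0.011, same test). GAC1, the subunit that directs Glc7 to glycogen, was abundant and nearly level, with 518.4 and 518.8 CPM in run 1 and 528.3 and 683.2 in run 2 (log2 fold change 0.21, FDR = 0.536, same test). IGD1, an inhibitor of the debranching enzyme, had 148.1 and 171.6 CPM in run 1 and 246.0 and 233.4 in run 2, a log2 fold change of 0.59 that did not pass (FDR = 0.141, same test) and is smaller than the 2.58 of GDB1 itself. That difference between IGD1 and GDB1 was not tested.

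**Figure D5:**
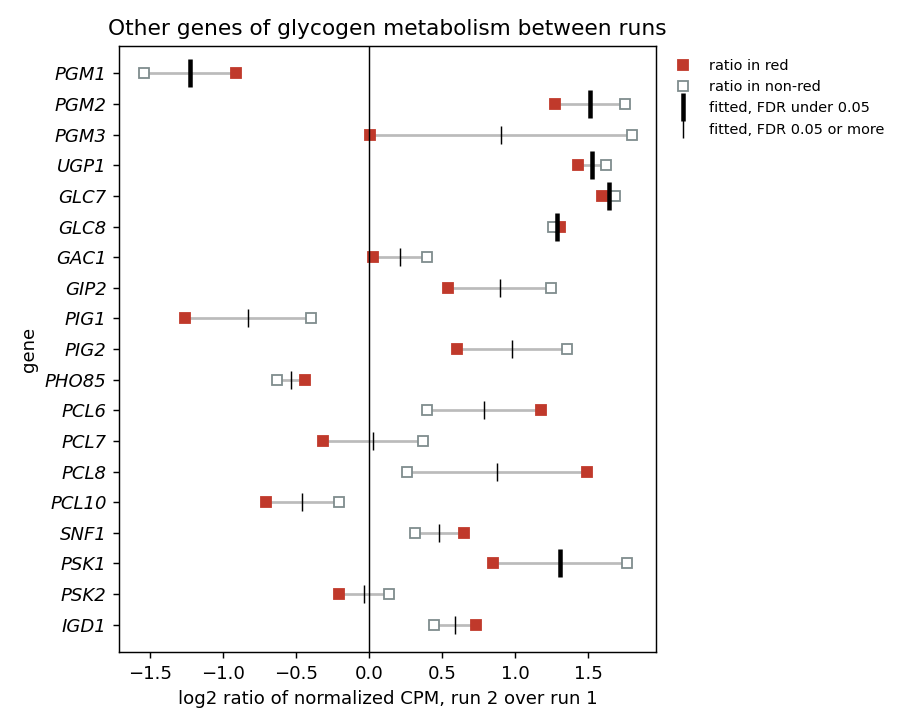
Log2 ratio of normalized CPM, run 2 over run 1, for the 19 other genes of glycogen metabolism, in red spores (filled) and non-red spores (open), with a bar at the fitted log2 fold change, thick where the FDR was under 0.05. GLC7, UGP1, PGM2, PSK1 and GLC8 lie between 0.85 and 1.76, and PGM1 is the one called gene on the left.

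The profiles of the 8 genes over the 4 libraries are described here by the root mean square difference of log2 CPM after centering each gene on its mean. GDB1 and GLC3 were 0.34 log2 units apart. Of 5478 genes averaging 500 reads or more, 57 lay nearer to GDB1 than GLC3 did, and 195 nearer to GLC3 than GDB1 did. GPH1 was 0.50 from GDB1, with 138 genes nearer to GPH1 and 139 nearer to GDB1. GLG1 lay 1.61 from GDB1, the widest distance within the set. It lay 0.28 from GLG2, with 789 genes nearer to GLG1 and 1295 nearer to GLG2. The genes nearest to GPH1 were CIS1, GPX1 and YNL195C, at 0.188, 0.188 and 0.196, each also lowest in non-red spores of run 1. The genes nearest to SGA1 were PRM4, ATP12 and PAN1, at 0.0359, 0.0383 and 0.0434, each lowest in red spores of run 1 and highest in red spores of run 2. With 4 libraries, many genes take similar profiles, and no test was made.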

How the data were processed

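RNA was made from 100 ng of hot acid phenol extract per library with an mRNA-seq kit according to the labels, whereas the series text names rRNA depletion. The authors aligned reads with STAR 2.7.3a to an R64 genome extended by mCherry and hph, then counted with featureCounts; strand, overlap and multi-mapping settings are not given in the sources used here. The deposited values are estimated counts, unnormalized, and 61.7% to 69.3% of those above 0 were not whole, so they were rounded to whole numbers for the count tests, where whole counts had been planned for. No column was without a sample.

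Computed here with R 4.3.3 and edgeR 4.0.16: genes were filtered by filterByExpr, normalized by TMM and adjusted by Benjamini-Hochberg over 6140 genes, with an FDR threshold of 0.05. Red and non-red were compared by the likelihood ratio test with replicate number as a block, since same-numbered libraries come from the same sporulation (r = 0.407 across 6140 genes between their deviations from the color means). Runs were compared by the quasi-likelihood test with sort color as a block. DESeq2 1.42.0, other scalings and filters, other FDR thresholds, fits without blocks and the omission of each library were alternatives. Both fits were tested on simulated counts, with outcomes not reported here. In earlier work on these data, the likelihood ratio test called too many genes in simulated counts. Likeness used log2(CPM + 0.5). Motifs were searched in 500 bases before the start codon of the R64 annotation, which also gave names and coordinates.

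All 8 genes are named. Of the 19 others, PGM2, UGP1, GAC1 and IGD1 are named, with up to 4 more past the FDR between runs by size of change. For GPH1 and SGA1 the 3 nearest genes averaging 500 reads or more are named. The genes, lists and tests were chosen with earlier results of these data known.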

Additional observations from a re-analysis of the deposited data

Results flagged for a closer look

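For 4 of the glycogen genes, red over non-red had opposite signs in the sporulation runs. On the log2 scale GLC3 was at 0.20 in run 1 and -0.15 in run 2, GLG1 at -0.49 and 0.15, GLG2 at -0.43 and 0.05, and SGA1 at -0.56 and 0.31. GLG2 also had opposite signs between runs, with run 2 over run 1 at 0.22 in red and -0.26 in non-red spores. With 1 library of each color per run, none of these differences was tested.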

How the results depend on the processing

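Between runs, GDB1 (log2 fold change 2.31 to 2.80) and GLC3 (1.84 to 2.02) passed the threshold in all 13 fits. GPH1 did not pass at an FDR of 0.01 (2.01) or without non-red replicate 1, and leaving out a library gave 1.15 to 2.84. GSY1 (1.02) passed in 5 of 13 fits, among them DESeq2 (FDR = 1.56e-06), and in none with a library left out. With a library left out, the run change was 0.94 to 1.07 for GSY1, 0.29 to 0.76 for GSY2, -0.85 to -0.34 for GLG1 and 0.33 to 0.92 for SGA1. GLG2 reversed to 0.026 with column totals only, and ran from -0.27 to 0.18 with a library left out. DESeq2 called 7 of the 8 genes and 2706 of all genes, against 3 and 1156. An FDR of 0.01 gave 584, and leaving out a library 623 (without non-red replicate 1) to 1340. Between red and non-red, none of the 8 genes passed under any alternative. The number of genes called, 1 with the replicate block, was 222 with DESeq2, 5 with column totals only, 1 without the replicate block and 0 in the quasi-likelihood test without it. Without the block GLC3 reversed to -0.076 in both edgeR tests. The replicate block changed no call among the 8. Fits with a library left out carry no block, and gave 2 to 29 genes and log2 fold changes of -0.48 to 0.72 for GSY1, -1.21 to 1.34 for GLC3, -0.61 to 0.28 for GLG1, -0.44 to 2.42 for GPH1, -1.5 to 2.10 for GDB1, -0.67 to 0.39 for SGA1, 0.07 to 0.66 for GSY2 and -0.32 to -0.06 for GLG2. GLG1 over GLG2 was 2.11 from raw counts. With a library left out and no block, red and non-red no longer hold the same runs. The change between runs then enters the red over non-red change, and the color difference enters the run change. Other causes of these changes were not tested, apart from the loss of length scaling in GLG1 over GLG2. Each glycogen gene had at least 874 reads in every library, but no fit at reduced depth was made.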
